A study of Mus musculus with 6 samples.

Results

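The genes examined here are 10 pericentral Wnt target genes of mouse hepatocytes: Axin2, Rnf43, Znrf3, Lgr5, Tbx3, Sp5, Glul, Slc1a2, Rhbg and Lect2. They form a list of transcripts known to depend on Wnt signalling in hepatocytes around the central vein. The list was set by that role and not by a threshold on the measured values, but it was chosen with earlier results of these data known. They are 10 of the 53599 gene symbols in the count table, and all 10 were among the 12691 genes with enough reads to be tested. Hepatocytes were isolated from mice given an adeno-associated virus (AAV8) by retro-orbital injection, and RNA was sequenced 4 days later in 6 libraries, 3 for each virus. The control mice received AAV8-TBG-Cre, the empty vector (EV). The Sox4 mice received AAV8-TBG-HA-Sox4-P2A-Cre, which adds an HA-tagged copy of the transcription factor SOX4. TBG is a promoter active in hepatocytes, and both viruses made Cre from it. By the methods of the study the vectors were built on different plasmid backbones, the one they name EV carrying a U6 promoter with a guide RNA scaffold and another polyadenylation signal, so an effect of Sox4 and one of these parts cannot be told apart. According to the methods of the study, the animals were male Rosa-LSL-Cas9-EGFP mice on a C57BL/6J background, 4 to 8 weeks old. In both groups Cre would therefore also have switched on Cas9 and EGFP. The cells were purified from the digested liver on Percoll and not sorted for EGFP, so each library can hold hepatocytes that took up no virus and cells of other types. Each comparison rests on the spread among 3 libraries per group.

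Wnt ligands and R-spondins made by the endothelium of the central vein reach the nearest hepatocytes, bind Frizzled and LRP receptors there, and stabilise beta-catenin, which enters the nucleus and acts with TCF/LEF factors. The targets of this signal include the enzyme and transporter genes of the pericentral zone, among them those of glutamine synthesis, and a set of genes that feed back on the pathway itself. Axin2, Rnf43 and Znrf3 belong to the feedback set and restrain the signal, while Lgr5 is a receptor for R-spondins.

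The libraries held between 15090629 and 16964860 counts assigned to genes. The library scaling by the trimmed mean of M-values (TMM), used for the CPM values throughout (counts per 1e+06 counts of the scaled library), treated the Sox4 libraries as 1.48 times the size of the EV libraries, although their total counts stood at a ratio of 1.07. With this scaling the median log2 fold change over all tested genes was 0.04, and with library size alone, that is scaling by total counts, it was 0.51, so directions are given under both where they differ. The Sox4 transcript had 2, 0 and 3 counts in the EV libraries and 21697, 15097 and 11816 in the Sox4 libraries. Its level differed among the Sox4 mice, at 819 ± 248 CPM (SD, n = 3). Against the floor of 3 counts in each EV library, Sox4 was at least 3631-fold higher.

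The 10 pericentral Wnt targets moved in opposite directions. The feedback genes Axin2, Rnf43 and Znrf3 and the secreted factor gene Lect2 rose in Sox4 hepatocytes by 1.65- to 2.21-fold, whereas the glutamine synthetase gene Glul and the transporter genes Slc1a2 and Rhbg fell by 2.94- to 6.11-fold. Lgr5, Tbx3 and Sp5 did not pass the test. In all, 7 of the 10 passed an adjusted p of 0.05 in edgeR's quasi-likelihood test with Benjamini-Hochberg adjustment over all tested genes, 4 as higher and 3 as lower. Over all 12691 genes, 55.1% passed, 29.0% as higher and 26.0% as lower, so the share of the targets that changed was near the share of genes in general. The 3 EV and 3 Sox4 values did not overlap for 7 of the 10 targets, 4 with Sox4 above and 3 with Sox4 below, compared with 63.0% of all genes, 33.1% above and 29.9% below. The median log2 fold change of the 10 was 0.32, beside 0.04 for all genes.

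**Figure D1:**
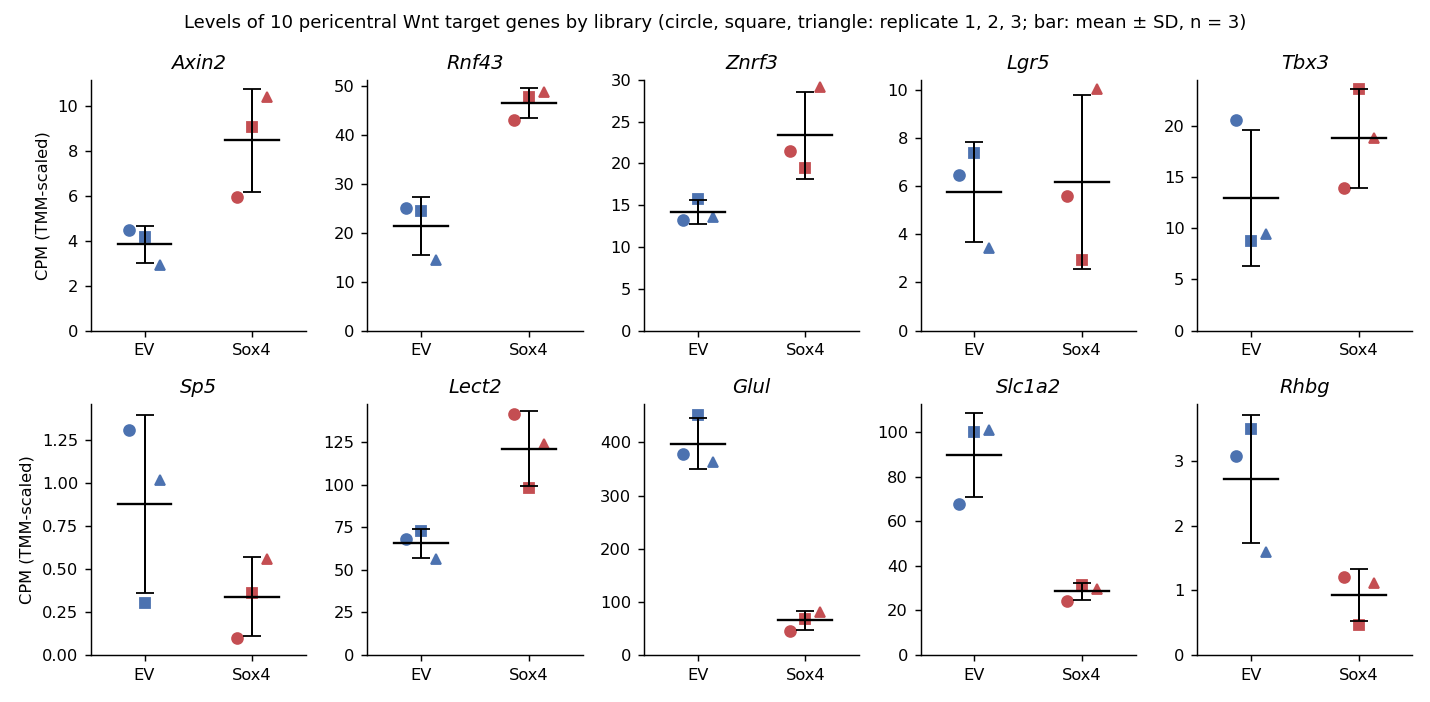
Level of each pericentral Wnt target in each of the 6 libraries, in TMM-scaled CPM on a linear axis from 0 for each gene; circles, squares and triangles are replicates 1, 2 and 3, and the bars are the mean ± SD (n = 3). The Sox4 points lie wholly above the EV points for Axin2, Rnf43, Znrf3 and Lect2, wholly below for Glul, Slc1a2 and Rhbg, and overlap for Lgr5, Tbx3 and Sp5.

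Among the feedback regulators, Axin2 encodes a scaffold of the complex that marks beta-catenin for destruction and is a widely used readout of Wnt signalling. Axin2 stood at 4.47, 4.18 and 2.90 CPM in the EV libraries and at 5.96, 9.09 and 10.4 CPM in the Sox4 libraries. Each Sox4 library was above each EV library, with the first Sox4 library the closest to the controls. The mean rose from 3.85 ± 0.832 to 8.50 ± 2.30 CPM (SD, n = 3 each), and the log2 fold change was 1.14, with an adjusted p of 0.00533 in edgeR. Its standard error (SE), taken for each gene from the spread of log2 CPM within the groups and not from the edgeR fit, was 0.30. These levels rest on 40 to 58 counts per EV library and 119 to 206 per Sox4 library.

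Rnf43 and Znrf3 encode related membrane ubiquitin ligases that remove Frizzled receptors from the cell surface. Rnf43 was measured at 25.1, 24.4 and 14.5 CPM in EV hepatocytes and at 43.1, 47.8 and 48.7 CPM in Sox4 hepatocytes. The third EV library was low and the Sox4 libraries were close together, with a coefficient of variation of 6.46% against 27.9% in EV. From a mean of 21.3 ± 5.96 in EV it reached 46.5 ± 3.01 CPM in Sox4, and its log2 fold change was 1.13 (SE 0.26, edgeR adjusted p = 0.000912). Znrf3 had 13.2, 15.8 and 13.6 CPM in EV and 21.5, 19.4 and 29.2 CPM in Sox4 hepatocytes. Here the EV libraries were the tighter group, and the third Sox4 library was above the other two. Znrf3 rose from a mean of 14.2 ± 1.41 to one of 23.4 ± 5.16 CPM, with a log2 fold change of 0.72 (SE 0.19, edgeR adjusted p = 0.00647).

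Lgr5 did not pass the test, and whether it differs in this from Axin2 was asked only through the ratio of their counts given further on. The receptor gene was at 6.47, 7.37 and 3.41 CPM in EV and at 5.56, 2.91 and 10.03 CPM in Sox4 hepatocytes. The Sox4 libraries held both the lowest and the highest of the 6 values. The log2 fold change was 0.10 with an SE of 0.60 (edgeR adjusted p = 0.861), so the lack of a call does not show that Lgr5 was unchanged. How large a change these libraries could have detected was not computed. Its sign rested on single libraries, since the estimate was -0.18 without the third EV library and -0.43 without the third Sox4 library.

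Tbx3 and Sp5 encode transcription factors. Tbx3 was at 20.6, 8.73 and 9.44 CPM in EV and at 13.9, 23.6 and 18.8 CPM in Sox4 hepatocytes. The first EV library was above the other two and lay within the Sox4 values. The log2 fold change was 0.54 (SE 0.45, edgeR adjusted p = 0.218), and without that EV library it was 1.03 with an adjusted p of 0.00639. Scaling by library size alone also took Tbx3 past the threshold as higher (adjusted p = 0.0355). The antisense gene Tbx3os1, which shares 1.74% of the exonic length of Tbx3, had 24 to 32 counts in EV and 0 to 4 in Sox4 libraries, and the sources used here do not say whether counting used the strand. Sp5 had few reads, with 17, 4 and 14 counts in EV and 2, 7 and 11 in Sox4 libraries. Its values overlapped between the groups, and the log2 fold change of -1.36 had an SE of 0.72 (edgeR adjusted p = 0.120).

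The genes of ammonia and glutamate handling were all lower. Glul encodes glutamine synthetase, which joins ammonia to glutamate in the innermost ring of pericentral hepatocytes. Glul stood at 378, 452 and 363 CPM in the EV libraries and at 45.8, 68.4 and 81.1 CPM in the Sox4 libraries. The highest Sox4 value was far under the lowest EV value. The mean was 398 ± 47.6 CPM in EV and 65.1 ± 17.9 CPM in Sox4, which was 6.11-fold lower, with a log2 fold change of -2.61 (SE 0.26, edgeR adjusted p = 9.37e-06). The pseudogene Glns-ps1 shares 9.46% of the 50-base words of Glul, and had 7 to 13 counts in EV and 0 to 6 in Sox4 libraries, against 913 counts or more for Glul.

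Slc1a2 encodes the glutamate transporter GLT-1, which brings the substrate of glutamine synthetase into the cell. It was at 67.8, 100.003 and 100.9 CPM in EV and at 24.4, 31.5 and 29.6 CPM in Sox4 hepatocytes. The groups were well apart, and the first library of each group was its lowest. The log2 fold change was -1.65 (SE 0.22, edgeR adjusted p = 4.32e-05), from a mean of 89.6 ± 18.8 to 28.5 ± 3.66 CPM. Rhbg, which encodes an ammonium transporter of the Rhesus family, fell from 3.08, 3.49 and 1.598 CPM to 1.20, 0.460 and 1.11 CPM. The third EV library lay just above the Sox4 values. The log2 fold change was -1.55 (SE 0.51, edgeR adjusted p = 0.0161), on 9 to 46 counts per library. This call was lost without the second EV library (adjusted p = 0.0664), without the second Sox4 library (adjusted p = 0.0542) and with library size alone (adjusted p = 0.0623). The annotated gene Gm38392 covers 61.4% of the exonic length of Rhbg on the same strand and had at most 2 counts in any library, so the level of Rhbg depends on how reads in shared exons were assigned, which the sources used here do not state.

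Lect2 encodes a protein that hepatocytes secrete. It was at 67.8, 72.4 and 56.1 CPM in EV and at 141, 97.7 and 124 CPM in Sox4 hepatocytes. All Sox4 libraries lay above all EV libraries, and the second was the lowest of the Sox4 group. Lect2 averaged 65.4 ± 8.44 CPM in EV against 121 ± 21.9 CPM in Sox4 hepatocytes, and its log2 fold change was 0.89 (SE 0.19, edgeR adjusted p = 0.000993). Because each library is RNA from many cells, a lower Glul or a higher Lect2 could come from fewer or more cells carrying the transcript or from less or more transcript in each cell, and these cannot be told apart in bulk samples.

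**Figure D2:**
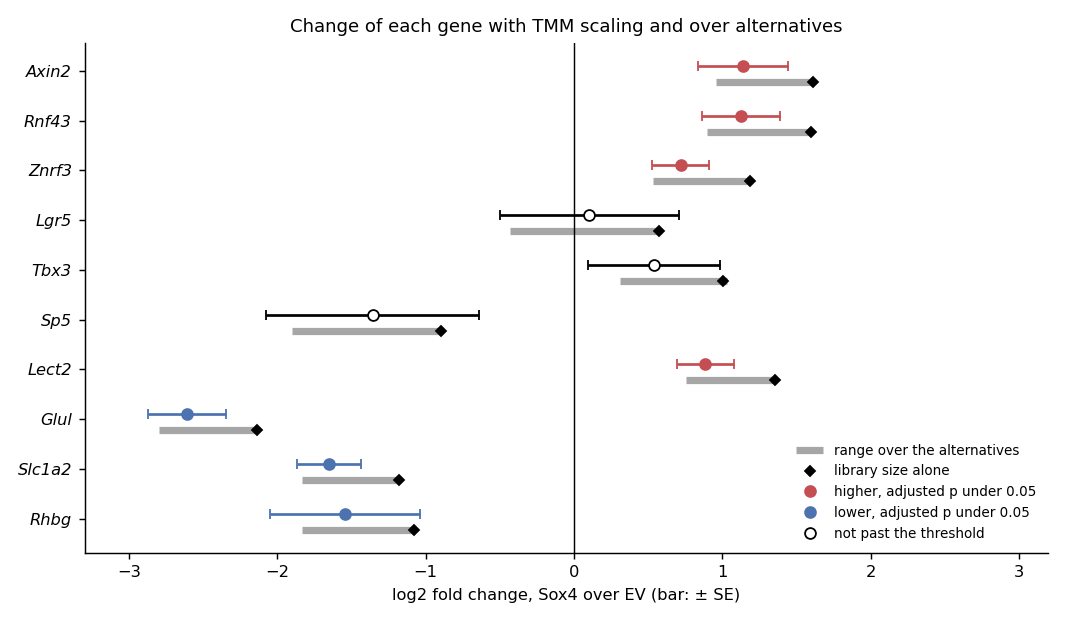
Log2 fold change of each pericentral Wnt target, Sox4 against EV, with TMM scaling (points, with bars of ± SE from the spread of log2 CPM among the libraries); the grey bars beneath give the range over the alternatives and the diamonds the value with library size alone. Glul at -2.61 and Slc1a2 at -1.65 lie at the negative end, Axin2 at 1.14 and Rnf43 at 1.13 at the positive end, and the range of Lgr5 spans 0.

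The size of each change moved with the scaling, and library size alone gave the highest value for most of the 10 genes. With it the log2 fold change was 1.61 for Axin2, 1.597 for Rnf43, 1.36 for Lect2, 1.19 for Znrf3, -2.14 for Glul and -1.18 for Slc1a2. The direction of these 6 genes was the same under all 14 alternatives tried, as was their side of the threshold. Over those alternatives the highest adjusted p was 0.0219 for Axin2, 0.0265 for Znrf3, 0.00459 for Rnf43, 0.00485 for Lect2, 0.000135 for Glul and 0.000312 for Slc1a2.

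A ratio of a pair of targets within a library does not depend on the scaling between libraries. For every 100 counts of Glul there were 1.18, 0.924 and 0.800 counts of Axin2 in the EV libraries and 13.0, 13.3 and 12.9 in the Sox4 libraries. The ratio was 13.7-fold higher in Sox4 hepatocytes, and it varied less among the Sox4 libraries than Axin2 or Glul did alone. Rnf43 had 6.65, 5.39 and 3.98 counts per 100 of Glul in EV and 94.2, 69.9 and 60.1 in Sox4 libraries, which was 14.05-fold higher, so that the ligase gene had nearly as many reads as Glul in the first Sox4 library. The counts per 100 of Glul were also 11.5-fold higher for Lect2 and 10.2-fold higher for Znrf3.

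Lgr5 went from 1.71, 1.63 and 0.940 counts per 100 of Glul to 12.2, 4.26 and 12.4. Against Axin2 it stood lower, at 145, 176 and 118 counts per 100 of Axin2 in EV and 93.3, 32.0 and 96.1 in Sox4 libraries. Slc1a2 rose against Glul, with 17.9, 22.1 and 27.8 counts per 100 of Glul in EV and 53.3, 46.0 and 36.6 in Sox4 libraries. The ratio of Rnf43 to Axin2 differed by 0.04 on the log2 scale between the groups (SE 0.20, exact permutation p = 0.9, two-sided), well within its error. Of 12 such ratios, which were chosen after the levels had been seen, 10 separated the groups fully, at an exact two-sided permutation p of 0.1 (0.12 after Benjamini-Hochberg adjustment). That is the smallest p that 3 against 3 libraries allow, and a p under 0.05 could not be reached. Most of the 12 ratios had Glul or Slc1a2 as the denominator. Each of these genes already separated the groups alone, so the count of 10 was largely set beforehand. The ratios share genes and are not independent, and the share of other gene pairs that separate the groups was not computed.

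**Figure D3:**
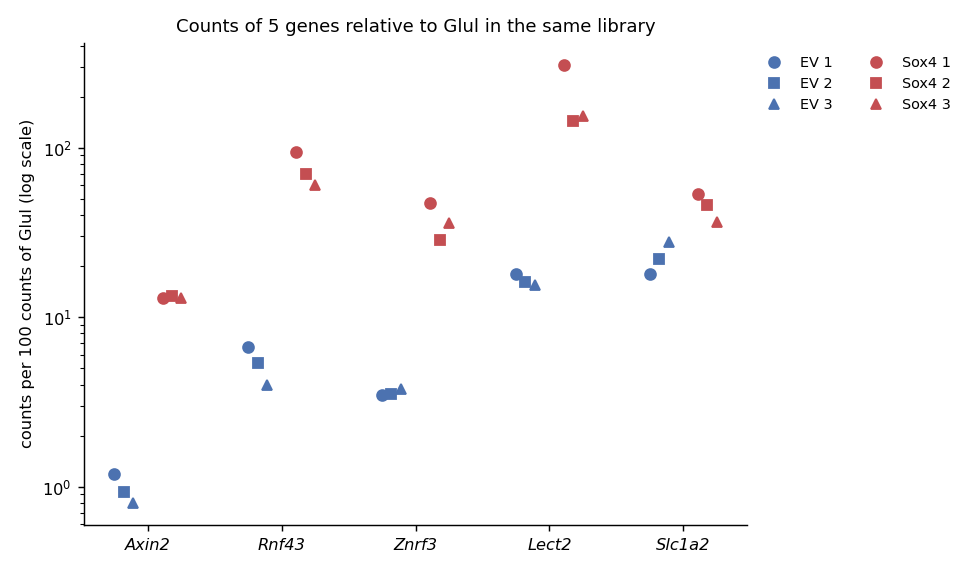
Counts of other pericentral Wnt targets per 100 counts of Glul in each library, on a log axis; circles, squares and triangles are replicates 1, 2 and 3 of EV and of Sox4. Axin2 lies at 0.800 to 1.18 in EV and at 12.9 to 13.3 in Sox4 libraries, and Slc1a2 shows the smallest shift of the genes drawn.

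Levels of different genes were compared as CPM per kilobase of merged exons. In EV hepatocytes Glul was first of the 10 at 119.7 and Lect2 followed at 71.2, then Slc1a2 at 6.82. Rnf43 at 3.25, Tbx3 at 1.95, Znrf3 at 1.80 and Rhbg at 1.41 CPM per kilobase came next, and each overlapped its neighbour in the order. Axin2 at 0.699, Lgr5 at 0.560 and Sp5 at 0.418 overlapped in the same way and were the lowest. In Sox4 hepatocytes Lect2 was first at 132 CPM per kilobase, Glul second at 19.6 and Rnf43 next at 7.10, each clear of the next. Znrf3 at 2.96, Tbx3 at 2.83, Slc1a2 at 2.17 and Axin2 at 1.54 overlapped with their neighbours, and Lgr5 at 0.601, Rhbg at 0.478 and Sp5 at 0.161 were again the lowest. Slc1a2 thus went from above the transcription factor and ligase genes in EV hepatocytes to below both ligase genes in Sox4 hepatocytes. Its highest Sox4 value was 2.40 CPM per kilobase, just under the lowest of Znrf3 at 2.46, and it overlapped Tbx3.

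The 250 bases before the start site were read for 5 targets whose levels are given above, so that promoters of genes that rose (Axin2, Lect2), fell (Glul, Slc1a2) or did not pass the test (Sp5) stand side by side. They come from RefSeq on GRCm38.p6, each 5′ to 3′ on the strand of the gene, at chr11:108920099-108920348 on the plus strand for Axin2, chr13:56548539-56548788 on the minus strand for Lect2, chr1:153899679-153899928 on the plus strand for Glul, chr2:102706188-102706437 on the plus strand for Slc1a2 and chr2:70474673-70474922 on the plus strand for Sp5. Capitals mark the words of the TCF/LEF type that were searched on both strands, which are spelled out after the sequences, a word on the minus strand appearing as its reverse complement; SOX factors recognise words close to them.
Axin2: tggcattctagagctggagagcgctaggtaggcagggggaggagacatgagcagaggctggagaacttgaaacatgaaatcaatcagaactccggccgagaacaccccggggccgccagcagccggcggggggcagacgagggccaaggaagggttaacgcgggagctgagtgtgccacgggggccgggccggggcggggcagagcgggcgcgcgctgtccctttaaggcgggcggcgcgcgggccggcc
Lect2: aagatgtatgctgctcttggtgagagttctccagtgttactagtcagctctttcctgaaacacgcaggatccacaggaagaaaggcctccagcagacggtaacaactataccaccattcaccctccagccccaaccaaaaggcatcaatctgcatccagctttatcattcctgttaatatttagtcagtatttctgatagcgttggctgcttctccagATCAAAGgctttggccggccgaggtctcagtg
Glul: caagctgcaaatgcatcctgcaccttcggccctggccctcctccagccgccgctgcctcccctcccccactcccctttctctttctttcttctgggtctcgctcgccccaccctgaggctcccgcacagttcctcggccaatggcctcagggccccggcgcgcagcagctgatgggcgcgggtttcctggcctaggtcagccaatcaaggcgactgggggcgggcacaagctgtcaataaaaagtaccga
Slc1a2: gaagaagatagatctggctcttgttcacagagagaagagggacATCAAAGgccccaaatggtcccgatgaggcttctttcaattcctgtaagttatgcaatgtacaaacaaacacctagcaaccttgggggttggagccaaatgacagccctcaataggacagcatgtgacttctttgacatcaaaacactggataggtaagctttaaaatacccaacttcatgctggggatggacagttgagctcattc
Sp5: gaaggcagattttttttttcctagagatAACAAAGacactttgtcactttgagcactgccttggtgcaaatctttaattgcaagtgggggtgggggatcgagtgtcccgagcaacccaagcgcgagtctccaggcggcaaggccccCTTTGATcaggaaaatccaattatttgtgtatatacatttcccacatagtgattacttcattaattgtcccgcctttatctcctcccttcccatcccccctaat

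Lect2 held CTTTGAT once on the minus strand at -32 to -26 from the start site, Slc1a2 held it once on the minus strand at -207 to -201, and Sp5 held CTTTGAT on the plus strand at -104 to -98 and CTTTGTT on the minus strand at -222 to -216. None of the 4 words occurred in these windows of Axin2 or Glul, nor in either of the windows RefSeq gives for Rnf43. Of 32851 windows of the same length over 27025 genes, 14.8% held at least 1 of the words, 3.21% CTTTGAT, 5.03% CTTTGTT, 4.46% CTTTGAA and 1052 windows CTTTGTA. The 4 words differ from each other in their last bases, so that no stretch matches more than 1 of them on the same strand. The words were therefore found before a gene that rose, one that fell and one that did not pass the test, and these are matches of letters that say nothing of binding. The RefSeq start used for Lect2 did not coincide with a GENCODE transcript start.

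The other parts of the pathway were counted in lists chosen with earlier results of these data known. The counts in this and the following lists stand beside 29.0% higher and 26.0% lower over all 12691 genes, with a median log2 fold change of 0.04. No list was tested against these shares, and the receptor list was near them. Among 25 genes for Wnt and R-spondin ligands and their secretion, 5 had enough reads to be tested, 3 were higher and 1 lower, and the median log2 fold change of those 5 was 1.99. The 3 that were higher passed the filter on low counts only through the Sox4 libraries. Being tested thus nearly set their direction, and neither this count nor this median says how the ligands changed. With genes limited to a mean count of 50 or more, 2 were tested, of which 0 were higher and 1 was lower. Wnt2 and Wnt9b, the ligands of central vein endothelium, had 0 to 4 and 0 to 3 counts in EV and 2 to 14 and 2 to 7 in Sox4 libraries, and the R-spondin gene Rspo3 had 0 to 3 and 2 to 14. All 3 were too low to be tested. Wnt5b, a ligand mostly linked to signalling without beta-catenin, was at 7.43 ± 2.00 CPM in EV and 2.28 ± 0.576 CPM in Sox4 hepatocytes and fell by 1.70 on the log2 scale (SE 0.30, edgeR adjusted p = 0.000838). The 3 that rose, Wnt4, Wnt5a and Wls, had low counts and are named here after their values were seen. Wnt4 was at least 7.04-fold higher than the floor of the EV libraries (adjusted p = 0.00328), while Wnt5a (adjusted p = 0.0265) and the secretion factor gene Wls (adjusted p = 0.033) each lost their call without single libraries, which were the second or the third EV or the second Sox4 library for Wnt5a and the first or the second EV or the second or the third Sox4 library for Wls.

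Of 17 receptor genes, 12 were tested, 4 rose and 3 fell, with a median log2 fold change of 0.22. Frizzled genes went both ways. Fzd3 had 1, 0 and 0 counts in EV and 375, 460 and 550 in Sox4 libraries, at least 104-fold higher than the floor (edgeR adjusted p = 4.45e-07), and Fzd5 rose from 9.89 to 33.4 CPM with a log2 fold change of 1.76. Of these, Fzd3 passed the filter on low counts only through the Sox4 libraries. Fzd7 rose by 1.15 and Fzd6, named after its value was seen, by 0.63 on the log2 scale, and the call of Fzd6 was lost without the second or the third EV or the second or the third Sox4 library. Fzd8 fell by 2.07 and Fzd4 by 1.18 on the log2 scale. Lgr4, the receptor for R-spondins related to Lgr5 and the more abundant of the pair in these libraries, went from 85.7, 80.2 and 91.6 CPM in EV to 46.4, 43.0 and 36.1 CPM in Sox4 hepatocytes. Its log2 fold change was -1.04 (SE 0.12, edgeR adjusted p = 8.69e-05), with no overlap between the groups.

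Of 20 genes for cytoplasmic Wnt signalling, 19 were tested, 11 rose and 1 fell, and the median log2 fold change was 0.44. The rises included Csnk1e, a casein kinase gene, from 5.03 to 31.9 CPM (log2 fold change 2.66, adjusted p = 1.46e-06), and Tnks, the gene of a tankyrase that turns over AXIN proteins, from 41.2 to 101 CPM (adjusted p = 1.92e-05). Dvl1, a Dishevelled gene, was the 1 that fell, by 1.18 on the log2 scale. Ctnnb1, the beta-catenin gene, stood at 226, 239 and 250 CPM in EV and 317, 334 and 299 CPM in Sox4 hepatocytes. The log2 fold change of Ctnnb1 was 0.41 (SE 0.06, edgeR adjusted p = 0.0142), a call lost without the first or the second EV library or the second Sox4 library.

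Among 15 nuclear factors of the pathway, 14 were tested, 5 rose and 2 fell, with a median of 0.37. Pygo1, a coactivator gene, went from 0, 3 and 4 counts to 312, 262 and 285 (edgeR adjusted p = 2.66e-06), its partner Bcl9 rose from 6.52 to 18.4 CPM and Tcf7l1 from 5.13 to 12.7 CPM. Like Fzd3, Pygo1 passed the filter on low counts only through the Sox4 libraries. Of the Groucho family, Tle1 and Tle3 rose by 0.72 and 0.75, and Tle2 and Tle5 fell by 1.21 and 0.83 on the log2 scale (Tle1 was named after its value was seen). The call of Tle5 was lost with library size alone. That of Tle3 was lost without the second or the third EV or the first or the second Sox4 library. Tcf7l2, a TCF factor of the adult liver, was at 16.4 ± 4.69 CPM in EV and 22.7 ± 4.90 CPM in Sox4 hepatocytes and did not pass the test (log2 fold change 0.47, SE 0.30, edgeR adjusted p = 0.113). With library size alone the number that rose was 7 of 12 receptors, 16 of 19 cytoplasmic genes and 11 of 14 nuclear factors. Over all genes 8092 of 12691 passed with that scaling, 79.9% of them as higher. Among 18 secreted and membrane antagonists, 2 were tested and 1, Notum, fell from a mean of 23.3 ± 3.12 CPM in EV (log2 fold change -0.64, adjusted p = 0.0448), a call lost with library size alone, with genes limited to a mean count of 50 or more, and without any of 4 single libraries, the first or the second EV or the second or the third Sox4 library.

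Other Wnt target genes also went both ways. Of 14 such genes, 6 were tested, 3 rose and 2 fell, 1 of them Notum. Ccnd1, the cyclin D1 gene, rose from 24.9 ± 13.1 to 232 ± 79.2 CPM (log2 fold change 3.22, edgeR adjusted p = 0.00241), Tnfrsf19 from 4.64 to 41.5 CPM (3.16, adjusted p = 9.76e-07) and Myc from 5.35 to 43.3 CPM (3.02, adjusted p = 2.03e-05). Cldn2, a tight junction gene, was lower, at 129 ± 5.59 CPM in EV and 52.0 ± 15.3 CPM in Sox4 hepatocytes (-1.31, adjusted p = 0.00057).

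Among genes of either end of the liver lobule outside the 10, more fell than rose with TMM scaling. Over all genes 29.0% were higher and 26.0% lower. Of 16 other pericentral hepatocyte genes, 7 fell and 4 rose, with a median log2 fold change of -0.41. Those that rose were Gstm3 and, named after their values were seen, Cyp2a5, Slc13a3 and Ahr. Gstm3 overlapped between the groups and lost its call in 9 of the 14 alternatives, among them without any single library but the third Sox4 library, and Cyp2a5 lost it without the first Sox4 library. Cyp2e1, a cytochrome P450 of the pericentral zone, went from 4491 to 818 CPM (log2 fold change -2.46, edgeR adjusted p = 2.5e-05), and Cyp2c50 was at -3.38. Of 17 periportal genes 11 fell and 1 rose (Igfbp2, named after its value was seen), with a median of -1.43, and they included Pigr at -3.86, Cyp2f2 at -2.81 and the glutaminase gene Gls2 at -2.35 on the log2 scale. With library size alone 5 of these pericentral genes fell and 5 rose, while 11 of the periportal genes fell and 2 rose. Whether the fall of Glul differs from that of periportal genes was not tested.

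**Figure D4:**
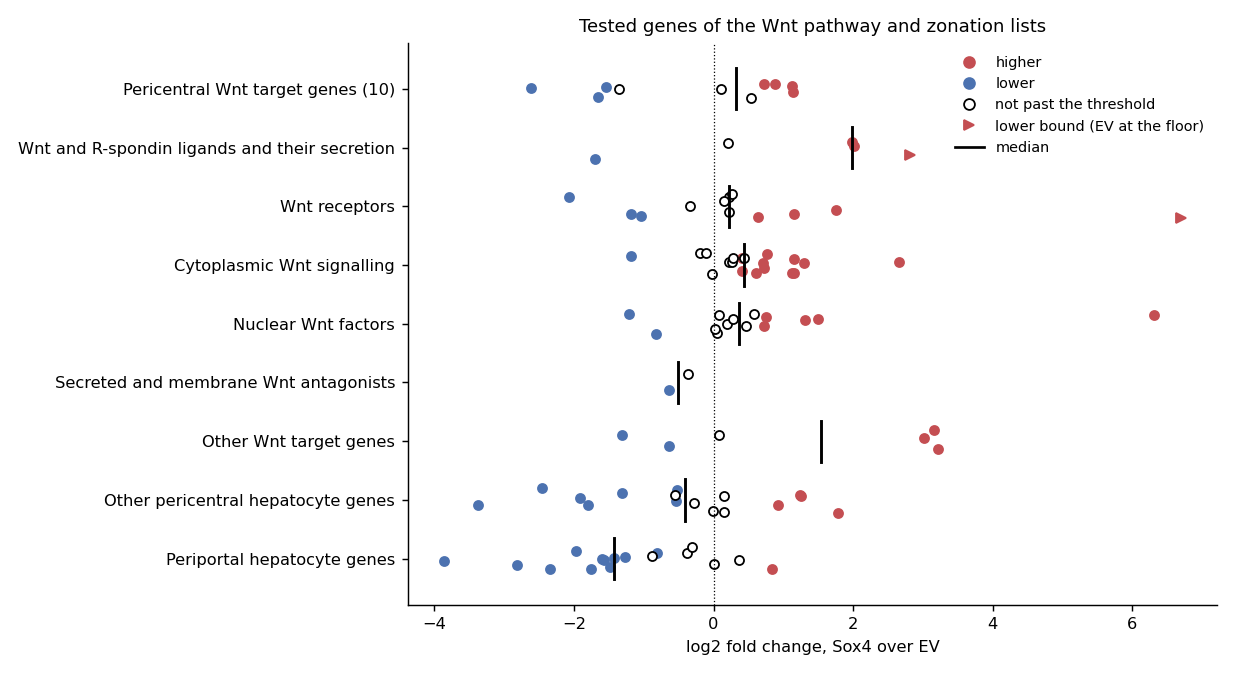
Log2 fold change, Sox4 against EV, of each tested gene in the lists of the Wnt pathway and of liver zonation; each point is a gene, a bar marks the median of each list, filled points passed the test, and triangles are lower bounds. Periportal genes lie mostly below 0 with a median of -1.43, cytoplasmic Wnt genes mostly above 0 with a median of 0.44, and the 10 pericentral Wnt targets lie on both sides.

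Markers of some other cells moved along with the groups. The counts of markers called stand beside 29.0% higher and 26.0% lower over all genes. Summed over 8 stellate cell and fibroblast markers the level was 10.5 to 48.4 CPM in EV libraries and lay between 88.7 and 145 CPM in Sox4 libraries (3 of 4 tested genes rose, and each of them lost its call under 3 or more alternatives, single libraries left out among them). Over 7 cholangiocyte markers it was 27.5 to 43.7 and 71.5 to 84.7 CPM (2 of 4 rose). For 9 Kupffer cell and macrophage markers the sums overlapped, at 11.9 to 27.5 and 26.5 to 64.0 CPM. There 3 of 8 rose, and Cd5l lost its call without the second EV library. The defining cholangiocyte keratin genes Krt19 and Krt7 had 0 counts in all EV libraries, and 9, 2 and 7 and 2, 1 and 7 in the Sox4 libraries. Markers of liver endothelial cells, the source of Wnt ligands at the central vein, summed to 19.8 to 31.8 CPM in EV libraries and overlapped with the Sox4 libraries at 16.5 to 38.4 CPM, with 2 of 10 higher and 1 lower, all 3 calls lost without single libraries. Hepatocyte markers summed to 120823 to 144081 CPM in EV libraries and to between 85926 and 99778 CPM in Sox4 libraries, with 7 of 10 lower. These sums rest on TMM scaling. With library size alone Alb, Serpina1a and Hnf4a lost their calls, at log2 fold changes of -0.10, -0.08 and -0.12. The 8 erythroid and leukocyte markers summed to 94.1 to 127 CPM in EV libraries and to at most 16.96 CPM in Sox4 libraries, and most of these counts were of Alas2, with 1274 to 1633 per EV library. Of the 8 markers only Alas2 and Ptprc had enough reads to be tested. The globin genes Hba-a1 and Hbb-bs did not, so this sum follows Alas2 and is no measure of red cells. The part of these cells in the changes of Axin2, Rnf43, Znrf3, Lect2, Glul, Slc1a2 and Rhbg was not tested.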

How the data were processed

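RNA of hepatocytes was sequenced in 6 libraries, 3 EV and 3 Sox4. The authors deposited a table of raw counts per gene symbol, made per the submitters' processing notes with STAR 2.7.10b and featureCounts 2.0.1 on GRCm39, and a table of signal values that the authors had divided by DESeq2 size factors, used here for 1 alternative only. The annotation release, strand and treatment of multi-mapping reads are not given in the sources used here. The study's methods do not state a test for this comparison.

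Counts were filtered with filterByExpr (minimum count 10), TMM-scaled and tested over 12691 genes with edgeR 4.0.16 (glmQLFit and glmQLFTest) in R 4.3.3, Benjamini-Hochberg adjusted at 0.05; CPM use TMM-scaled library sizes. Ratios within a library were tested by exact two-sided permutation. Alternatives used DESeq2 1.42.0, limma 3.58.1 (log2 of the deposited values plus a pseudocount of 1), other scalings and filters, a replicate block and each library left out. A floor of 3 counts came to between 0.218 and 0.231 CPM for EV libraries and between 0.150 and 0.153 CPM for Sox4 libraries, and covers counting error only. Totals per library were 15090629 to 16964860 counts. Gene lengths and exon overlaps came from GENCODE M21 on GRCm38, while the counts were made on GRCm39. The 6 of 10 targets found in the RefSeq promoter table were Axin2, Glul, Rnf43, Slc1a2, Lect2 and Sp5; Lgr5, Znrf3, Tbx3 and Rhbg were not matched. Only the edgeR fit was tested on simulated counts, in which few genes changed, unlike in these data. The other steps were not tested in this way.

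The 10 targets and all lists were chosen with earlier results of these data known. All 10 are named. From every other list up to 6 genes past the threshold were eligible, those with the largest absolute log2 fold change and a mean count of at least 50, beside Wnt2, Wnt9b, Rspo3, Ctnnb1, Tcf7l2, Lgr4 and Cyp2e1, and of the marker lists only defining markers; others are said to be chosen after their values were seen. By the study's methods and legends each library came from a different animal. Standard errors of log2 fold changes were computed from the spread of log2 CPM within each group.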

Additional observations from a re-analysis of the deposited data

How the results depend on the processing

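Under the 14 alternatives, 6 to 8 of the 10 targets passed the threshold, 4 or 5 as higher and 2 or 3 as lower, and leaving out 1 library gave 6 to 8 in all. Of 138 values of single targets under an alternative, 129 kept their direction and side of the threshold. The others were Rhbg, which missed the threshold 3 times, Tbx3, which passed it 3 times (once with no filter on low counts, at 0.58 and an adjusted p of 0.00854), and Lgr5, which changed sign 3 times (-0.00051 with limma on the deposited values, and -0.43 to 0.44 over the fits without 1 library). Sp5 and Rhbg were absent from the fit limited to a mean count of 50. Called genes numbered 5937 to 8092 over all genes, and 6027 to 7269 without 1 library, beside 6990. The share of called genes that were higher was 52.7%, and 79.9% of 8092 with library size alone; the cause was not tested. Of the genes in the other Wnt and zonation lists 48 to 70 passed, beside 57, and 48 to 59 without 1 library.

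Correlations of deviations were 0.27, -0.09 and 0.13 between libraries of the same replicate number, and -0.27 to 0.18 between those of different numbers. So few values cannot show whether the replicate numbers paired the samples. With the replicate block 7362 genes and 7 targets passed, and no target changed its call. Counts per library were lowest for Sp5 and Rhbg among the targets, and most Wnt ligand genes had too few to be tested. Groups of 3 libraries were too small to look for outlying samples.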
